A study of Mus musculus with 12 samples.

Results

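Genes of the cell cycle were followed in the palatal shelves of mouse embryos that lack Pax9 and of their control littermates. The set held 50 genes, chosen by symbol: 24 that act in G1, at the G1/S transition or in DNA replication, 23 that act in G2 and mitosis, and 3 inhibitors of cyclin-dependent kinases. All 50 were found among the 19083 genes of the expression table. All 50 also passed the filter that left 14107 genes for testing, which was at least 1 FPKM in at least 3 libraries. FPKM, fragments per kilobase of gene and per size of library, is the unit of every level given here, and differences are Pax9-/- minus control on the log2(FPKM + 0.5) scale.

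A dividing cell passes from G1 through DNA replication in S phase to G2 and mitosis, driven by cyclin-dependent kinases (CDKs) and the cyclins that switch them on. D-type cyclins with Cdk4, and E-type cyclins with Cdk2, release the E2F factors that transcribe the replication genes. Later, A- and B-type cyclins with Cdk1, the Aurora and Polo kinases, and the kinetochore proteins carry out mitosis under transcription by the MuvB complex with B-Myb and Foxm1. Palatal shelves grow by division of neural-crest-derived mesenchyme under a thin epithelium, and Pax9 is a paired-box transcription factor expressed in that mesenchyme and needed for the palate to close.

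The tissue was palatal shelf micro-dissected from single C57BL/6 embryos at embryonic day 14 (E14), and 12 libraries were made from poly(A)-selected RNA. The 4 groups, of 3 embryos each, were untreated Pax9-/- embryos, untreated controls, Pax9-/- embryos exposed to WAY-262611, and controls exposed to WAY-262611, a small molecule that activates Wnt signalling by blocking the inhibitor Dkk1. Exposure was by daily injection of the Pax9+/- dam from E10.5 to E14. Untreated controls were 1 Pax9+/+ and 2 Pax9+/- embryos, and WAY-262611 controls were 2 Pax9+/+ and 1 Pax9+/- embryo. Each title starts with CTR (untreated) or WAY and carries a number shared by some embryos of that treatment, and these title numbers are written here as CTR-389, CTR-393, WAY-318 and WAY-422. CTR-389 and WAY-318 each gave 1 control and 1 mutant, and CTR-393 and WAY-422 each gave 2 of both. The labels name no tissue-specific allele, so Pax9-/- is read here as loss in the whole embryo and not in the shelf alone. The labels do not say which part of Pax9 is deleted.

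Recovered depth ran from 36.8 to 49.8 M reads per library, and the lowest count of any of the 50 genes in any library was 689 reads. Pax9 itself stood at 4.75 to 7.30 FPKM in the 6 mutants, at 20.3 to 22.8 in the 3 Pax9+/- embryos and at 28.5 to 37.5 in the 3 Pax9+/+ embryos, so every library matched its genotype label. Column names carry 1 of 2 numeric prefixes, the first on the 4 libraries of CTR-389 and WAY-318 and the second on the 8 libraries of CTR-393 and WAY-422. The first principal component over all genes held 52.5% of the variance and put the 4 libraries of the first prefix on 1 side and the 8 of the second on the other. Libraries were therefore compared within title numbers as well as over all 12. The second WAY-262611 control, a Pax9+/- embryo of WAY-422, stood apart from the rest with an FPKM sum of 334406 against 302797 to 321719 in the other 11. All 8 palatal mesenchyme markers were above 0 in every library. They summed to 1218 to 1346 FPKM with the first prefix and to 1902 to 2460 with the second. All 14 epithelial markers were also above 0. They summed to 435 to 1060 FPKM in untreated mutants and 673 to 1232 in untreated controls. In WAY-262611 mutants they summed to 504 to 1084 and in WAY-262611 controls to 570 to 1564. With the first prefix these sums were 435 to 673 FPKM, and with the second 1009 to 1564. The mean log2 difference of those 14 markers was -0.48, -0.19, -0.10 and -0.37 in CTR-389, CTR-393, WAY-318 and WAY-422, lower in the mutants of each, and its part in the cell cycle results was not tested. Muscle markers differed by 1.71 in CTR-389 and by 0.01 to 0.29 in the others. In the same order of title numbers, cartilage markers differed by -0.42, 0.62, -0.36 and 0.30. Osteoblast markers differed by -0.44, 0.45, -0.07 and 0.15, and Schwann markers by 0.73, 0.02, -0.29 and -0.36. Erythroid markers differed by 0.06, 0.10, -0.46 and -0.10. Osteoblast sums were 72.6 to 120 FPKM with the first prefix and 723 to 1311 with the second. The part of these markers was not tested. In bulk tissue, fewer dividing cells and less RNA per dividing cell cannot be told apart.

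Promoters of 4 of the 50 genes are shown first, because they show the letters whose frequency differed between the mitotic and the G1/S genes. Each is the stretch from 250 bases before to 50 bases after the annotated start, from RefSeq on GRCm38.p6, printed 5′ to 3′ on the strand of the gene. Capitals mark the CHR element searched as TTTGAA, the CCAAT box searched as CCAAT, and the E2F core. The core was searched with the letters TTCCCGC, then TTGGCGC, also with TTCGCGC, and lastly with TTGCCGC. All were searched on both strands, so that ATTGG is a CCAAT box on the other strand. Ccnb2 (cyclin B2; chr9:70421505-70421804, minus strand) is the mitotic gene with the lowest p for genotype among those with a RefSeq window, and Asf1b (a histone chaperone; chr8:83955444-83955743, plus strand) is the same for the G1/S group. Ccnb1 (cyclin B1; chr13:100786437-100786736, minus strand) and Mcm6 (a subunit of the replicative helicase; chr1:128359656-128359955, minus strand) were added for contrast after their values were seen.
Ccnb2: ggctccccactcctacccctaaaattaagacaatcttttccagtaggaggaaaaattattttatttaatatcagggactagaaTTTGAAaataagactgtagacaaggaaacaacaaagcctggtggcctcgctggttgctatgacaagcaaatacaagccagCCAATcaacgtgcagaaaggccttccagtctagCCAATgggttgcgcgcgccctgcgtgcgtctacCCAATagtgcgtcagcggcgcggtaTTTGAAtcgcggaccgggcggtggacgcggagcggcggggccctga
Asf1b: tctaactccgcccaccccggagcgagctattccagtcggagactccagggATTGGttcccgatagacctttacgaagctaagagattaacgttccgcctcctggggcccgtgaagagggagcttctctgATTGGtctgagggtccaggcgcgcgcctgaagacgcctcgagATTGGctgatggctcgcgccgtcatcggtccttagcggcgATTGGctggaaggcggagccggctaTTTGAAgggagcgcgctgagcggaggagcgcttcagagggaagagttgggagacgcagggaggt
Ccnb1: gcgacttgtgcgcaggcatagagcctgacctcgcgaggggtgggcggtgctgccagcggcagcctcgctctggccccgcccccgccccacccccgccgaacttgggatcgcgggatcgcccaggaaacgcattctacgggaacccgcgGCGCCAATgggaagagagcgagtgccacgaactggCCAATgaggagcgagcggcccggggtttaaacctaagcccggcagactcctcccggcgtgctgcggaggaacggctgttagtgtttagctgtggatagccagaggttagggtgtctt
Mcm6: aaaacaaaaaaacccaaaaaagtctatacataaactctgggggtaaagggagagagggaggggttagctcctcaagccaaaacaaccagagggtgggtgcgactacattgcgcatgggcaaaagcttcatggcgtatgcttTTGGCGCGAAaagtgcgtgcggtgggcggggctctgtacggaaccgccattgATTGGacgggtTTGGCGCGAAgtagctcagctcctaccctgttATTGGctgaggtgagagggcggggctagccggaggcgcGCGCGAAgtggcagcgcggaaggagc

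The Ccnb2 window held 2 CHR elements and 3 CCAAT boxes with no E2F core, and the Asf1b window 1 CHR and 4 CCAAT boxes with no E2F core. The Ccnb1 window held no CHR as spelled, 2 CCAAT boxes and 1 E2F core on the other strand, which overlaps a CCAAT box. The Mcm6 window held no CHR, 5 E2F matches, some of which overlap one another across the strands, and 2 CCAAT boxes. RefSeq windows were found for 38 of the 50 genes (17 of 23 mitotic, 19 of 24 G1/S and 2 of 3 inhibitors), and genes with several annotated starts have several windows. A CHR was in 13 of the 17 mitotic windows (76.5%) and in 5 of the 21 G1/S windows (23.8%), beside 17.9% of all 32851 promoter windows. An E2F core was in 3 of the 17 mitotic windows (17.6%) and in 10 of the 21 G1/S windows (47.6%), beside 9.57% of all. A CCAAT box was in 94.1% of the mitotic and 66.7% of the G1/S windows, beside 37.4% of all. A match describes letters in the window and not a bound site.

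Transcripts of the mitotic genes were lower in Pax9-/- shelves within every title number, untreated or treated. The mean log2 level of the 23 mitotic genes differed by -0.17 in CTR-389, -0.17 in CTR-393, -0.15 in WAY-318 and -0.23 in WAY-422, with a mean of -0.18 ± 0.03 (SD, n = 4 title numbers). Over the 4 controls with the second prefix, with untreated and treated embryos pooled, that mean level had an SD of 0.05. The mean level of the 24 G1/S genes differed less, by -0.06, -0.08, -0.08 and -0.08 in the same order, with a mean of -0.08 ± 0.01. Mitotic level minus G1/S level was lower in the mutants of each title number, by -0.11, -0.10, -0.07 and -0.14. Over all 14107 genes the mean level differed by -0.002 to -0.03. The 3 CDK inhibitors showed no common direction, at 0.41 in CTR-389, -0.01 in CTR-393, 0.06 in WAY-318 and -0.04 in WAY-422. These means are descriptions of the chosen genes and carry no test.

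**Figure D1:**
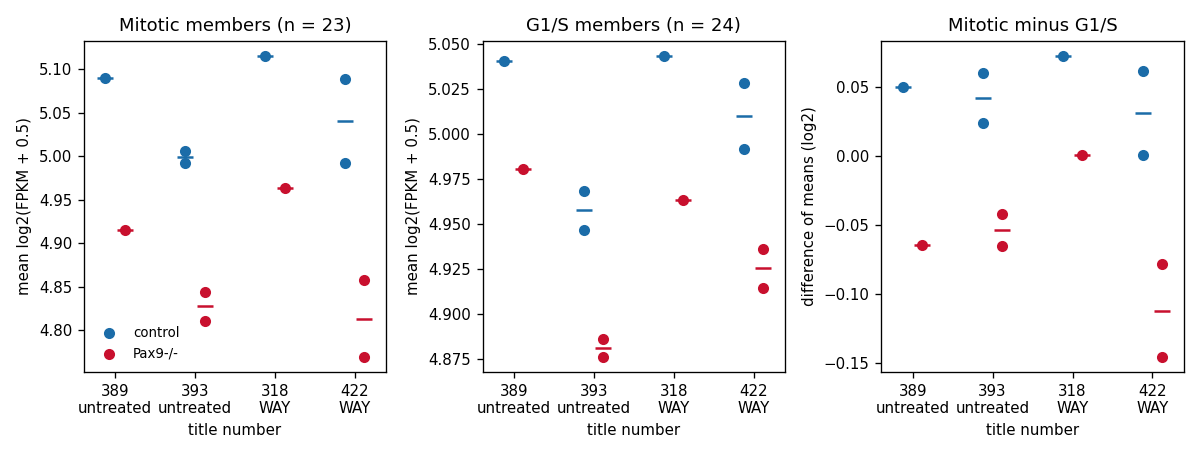
Mean log2(FPKM + 0.5) per library of the 23 mitotic genes (left) and of the 24 G1/S genes (middle), and their difference (right), by title number. Points are libraries (blue control, red Pax9-/-) and bars are means within a title number; vertical axes do not start at 0. In every title number each mutant lies below every control in the left and middle panels, with mean mitotic differences from -0.15 to -0.23.

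Gene by gene, 22 of the 23 mitotic genes (95.7%) were lower in the mutants of all 4 title numbers, beside 3087 of all 14107 genes (21.9%). Ccnb1 was the exception. Of the 24 G1/S genes, 15 (62.5%) were lower in all 4, and Ccnd1 was the single member higher in all 4, beside 10% of all genes. Scaling the libraries by median ratios left 19 mitotic genes (82.6%) and 11 G1/S genes (45.8%) lower in all 4, beside 15.8% of all genes. Read over all 12 libraries without regard to title number, 10 of the 50 genes had every mutant below every control, 5 mitotic (Cdk1, Aurkb, Cdc20, Cenpa and Tpx2) and 5 G1/S (Cdc45, Gmnn, Pcna, Tyms and Asf1b), beside 1.79% of all genes, and none had every mutant above, beside 0.751%. Within the 8 libraries of the second prefix, this held for 16 of 23 mitotic genes (69.6%) and 8 of 24 G1/S genes (33.3%), beside 7.56% of all genes, and Ccnd1 had every mutant above, beside 3.93%.

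**Figure D2:**
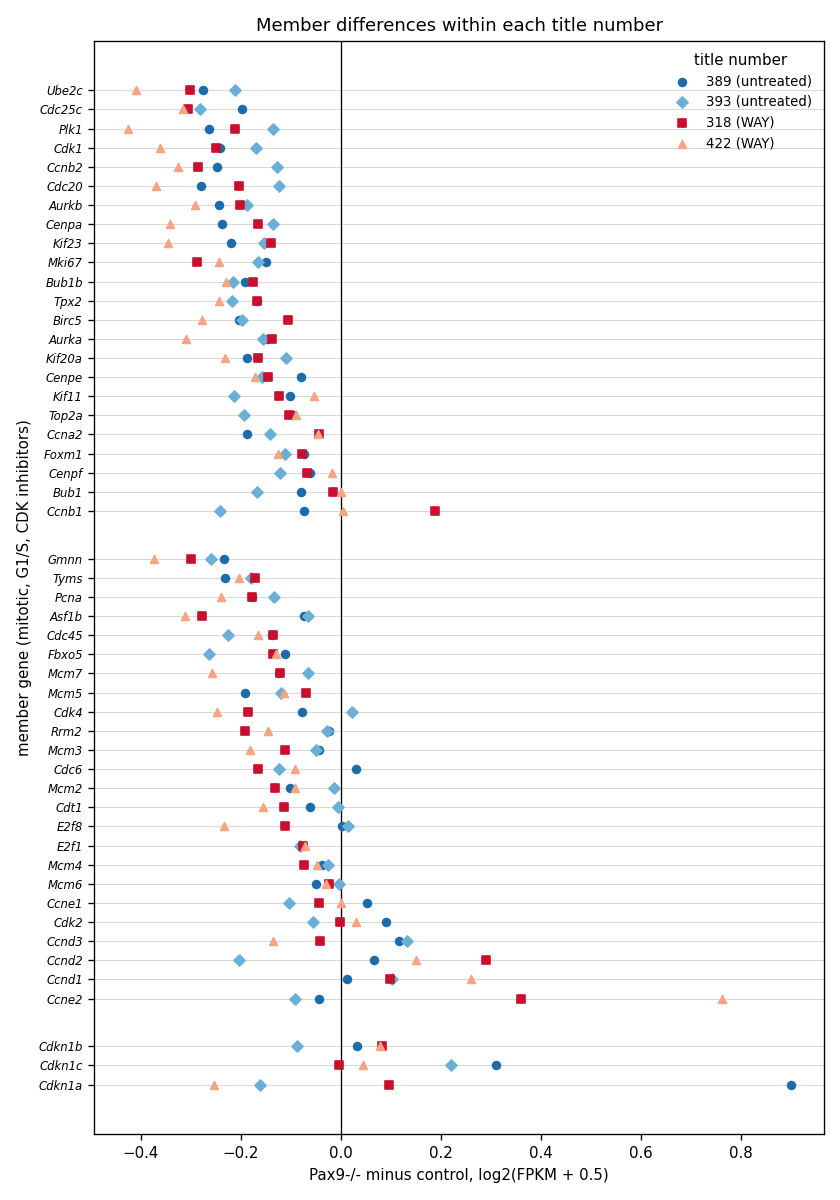
Difference between Pax9-/- and control in log2(FPKM + 0.5) for each of the 50 genes (mitotic at the top, G1/S in the middle, CDK inhibitors at the bottom), 1 symbol per title number (blues untreated, red and orange WAY-262611). The symbols of 22 mitotic genes all lie left of 0, while Ccne2 spreads from -0.09 to 0.76 and Cdkn1a from -0.25 to 0.90.

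In limma's test of genotype over both treatments, with Benjamini-Hochberg adjustment over 14107 genes, 4 of the 50 genes were lower in Pax9-/- shelves and none was higher, beside 0.532% of all genes lower and 0.851% called in either direction. They were the mitotic genes Aurkb and Ccnb2 and the G1/S genes Gmnn and Asf1b. At an unadjusted p under 0.05 there were 29 of the 50, beside 2206 of all 14107 genes. With title number in the model as a block, which compares embryos that share a title number, 25 genes fell (18 mitotic and 7 G1/S) and 1 rose, beside 5.34% of all genes lower and 2.91% higher. The count of 4 became 1 or 2 without any 1 of 9 libraries: untreated mutants 1, 2 and 3, untreated controls 1, 2 and 3, WAY-262611 mutants 2 and 3, and WAY-262611 control 3. The blocked count of 25 became 15 without untreated mutant 2, and 16 without untreated mutant 1, untreated controls 1, 2 or 3, or WAY-262611 mutant 3. Over all 14107 genes, the fits that left out 1 library gave 26 to 77 lower calls, and 320 to 1703 with the block. Of the 25 members, 15 were kept in each of the 12 blocked fits that left out 1 library and 10 were lost in at least 1. The share of all called genes kept in this way was not counted. A term for heterozygous embryos left 0 called, and those 3 embryos all have the second prefix. With that term Aurkb, Ccnb2, Gmnn and Asf1b were at -0.18 to -0.28, with limma's adjusted p from 0.11 to 0.20. The share of all genes called with that term is not given here. With a term for column prefix in place of the block, 26 fell and 1 rose, beside 6.6% and 3.27% of all genes. In the 8 libraries of the second prefix 8 genes were called lower, beside 1.94% of all genes.

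Among the mitotic kinases, Aurkb, the catalytic subunit of the chromosomal passenger complex, was at 27.2 FPKM in the control and 22.9 in the mutant of CTR-389, at 26.1 and 26.8 in controls and 22.97 and 23.3 in mutants of CTR-393, at 29.3 and 25.4 in WAY-318, and at 31.8 and 27.7 against 24.8 and 23.6 in WAY-422. Every mutant was below every control, the nearest being 25.4 and 26.1. The log2 difference of Aurkb was -0.23 ± 0.04 (SE), and limma's adjusted p was 0.026, or 0.0084 with the block. Its call was lost, at adjusted p of up to 0.089, when WAY-262611 mutant 2 or 3, or any of 6 untreated embryos, was left out, and kept in 12 of 12 such fits with the block. Plk1, the Polo kinase that drives mitotic entry and spindle assembly, was at 41.0 and 34.1 in CTR-389, 33.5 and 34.8 against 30.9 and 31.1 in CTR-393, 42.2 and 36.4 in WAY-318, and 42.2 and 36.3 against 29.1 and 28.8 in WAY-422. The Plk1 mutants were lower within each title number, with overlap between title numbers, and the difference was -0.27 ± 0.08 (adjusted p = 0.14 by limma, 0.011 with the block). Aurka, the spindle-pole kinase, differed by -0.20 ± 0.05 (adjusted p = 0.081, and 0.0079 with the block). Bub1b, a kinase-like protein of the spindle checkpoint, differed by -0.21 ± 0.05 (0.10, and 0.0079 with the block).

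Ccnb2, 1 of the B-type cyclins that activate Cdk1, was at 56.1 FPKM in the control and 47.2 in the mutant of CTR-389, at 49.7 and 54.3 against 45.0 and 50.1 in CTR-393, at 58.6 and 48.0 in WAY-318, and at 60.6 and 55.8 against 46.1 and 46.4 in WAY-422. Mutants overlapped controls by a single embryo, the mutant of CTR-393 at 50.1 above the control of the same number at 49.7. Ccnb2 fell by 0.24 ± 0.04 (adjusted p = 0.034 by limma, 0.010 with the block), and the call without the block was kept only in the fits that left out untreated control 2 or untreated mutant 3, of 12 that left out 1 library. Cdk1, the kinase that cyclin B activates, was at 46.6 and 39.4 in CTR-389, 49.7 and 50.8 against 43.1 and 46.1 in CTR-393, 48.9 and 41.0 in WAY-318, and 63.5 and 55.2 against 45.8 and 46.2 in WAY-422. Its highest mutant, at 46.2, was just below its lowest control. The Cdk1 difference of -0.26 ± 0.07 passed the test with the block (adjusted p = 0.0067) and not without it (0.11). Cdc25c, the phosphatase that activates Cdk1, showed -0.28 ± 0.07 (adjusted p = 0.085 by limma, 0.0066 with the block).

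Ccnb1, another B-type cyclin, stood at 9.98 FPKM in the control and 9.47 in the mutant of CTR-389, at 10.6 and 10.7 against 8.83 and 9.03 in CTR-393, at 8.20 and 9.41 in WAY-318, and at 10.3 and 7.56 against 9.55 and 8.19 in WAY-422. Mutants were lower in both untreated title numbers, higher in WAY-318 and between the controls in WAY-422. The overall Ccnb1 difference was -0.06 ± 0.07 (adjusted p = 0.73 by limma, 0.62 with the block), and a term for heterozygous embryos turned its sign, to 0.05. Ccna2, the cyclin of S phase and G2, was lower in all 4 title numbers, yet its -0.10 ± 0.04 passed neither test (adjusted p = 0.31, and 0.094 with the block).

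Of the factors that hand proteins to the proteasome in mitosis, Ube2c, an E2 enzyme of the anaphase-promoting complex, showed the most negative difference of the 23 mitotic genes. It stood at 44.6 and 36.8 FPKM in CTR-389, 35.9 and 37.8 against 31.0 and 32.5 in CTR-393, 47.2 and 38.2 in WAY-318, and 50.4 and 39.9 against 33.6 and 33.7 in WAY-422. Mutants were lower within each title number, and the control of CTR-393 at 35.9 was below the mutants of CTR-389 and WAY-318. The Ube2c difference was -0.30 ± 0.08 (adjusted p = 0.11 by limma, 0.012 with the block). Cdc20, the activator of the same complex, was at 56.1 to 63.5 FPKM in controls and 46.8 to 55.1 in mutants without overlap, and differed by -0.24 ± 0.05 (adjusted p = 0.053, and 0.0070 with the block).

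Most spindle and kinetochore genes shared the direction of the kinases. With the block, limma called lower Tpx2, a spindle assembly factor (-0.21 ± 0.03), the kinesins Kif20a (-0.17 ± 0.03) and Kif23 (-0.23 ± 0.06), the passenger subunit Birc5 (-0.21 ± 0.04), the centromeric histone Cenpa (-0.23 ± 0.05) and the kinetochore kinesin Cenpe (-0.15 ± 0.04). Adjusted p for these 6 genes ran from 0.0058 for Tpx2 to 0.046 for Kif23. Tpx2 was at 42.6 to 46.1 FPKM in the controls and 35.0 to 41.0 in the mutants, without overlap. Mki67, the chromosome-coating protein used as a marker of dividing cells, was at 69.6 and 62.6 FPKM in CTR-389, 61.1 and 62.1 against 56.1 and 53.7 in CTR-393, 75.6 and 61.8 in WAY-318, and 65.7 and 63.1 against 56.5 and 52.1 in WAY-422. Its mutants were below the controls within each title number, and the mutants of CTR-389 and WAY-318 lay among the controls of the others. The Mki67 difference was -0.21 ± 0.03 with the block (adjusted p = 0.0053), against 0.17 without it. Top2a, the topoisomerase that untangles sister chromatids, showed -0.13 ± 0.03 (0.049 with the block), and Foxm1, the mitotic transcription factor, -0.10 ± 0.03 (0.042 with the block). In fits that left out 1 library, the blocked calls of Top2a, Foxm1 and Kif23 were kept only without WAY-262611 control 2 or 3 (adjusted p otherwise up to 0.12, 0.12 and 0.13), and that of Cenpe only without either of these or WAY-262611 mutant 2 (up to 0.10). Those of Birc5 and Cenpa were kept only without a WAY-262611 control, WAY-262611 mutant 1 or untreated mutant 3 (up to 0.065 and 0.11). The other 3 mitotic genes, Bub1, Cenpf and Kif11, were between -0.07 and -0.13 and passed neither test.

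**Figure D3:**
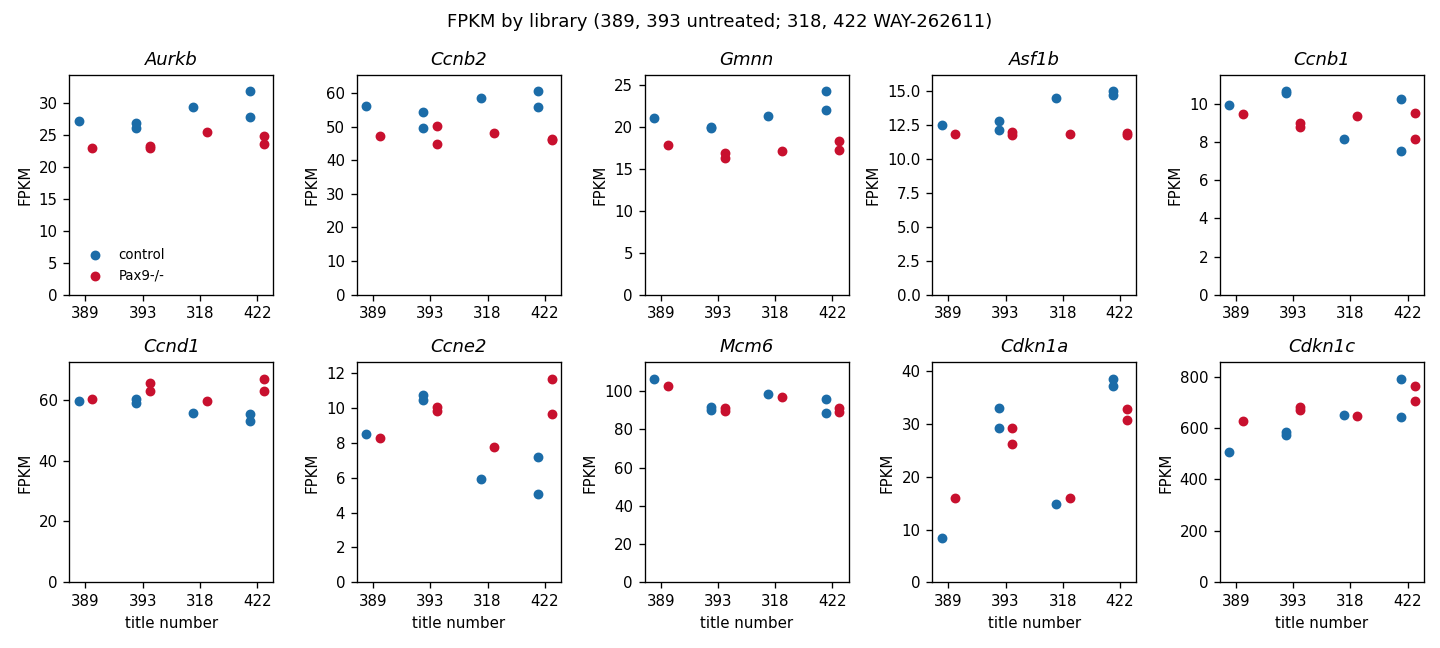
FPKM of 10 genes in each of the 12 libraries by title number, with axes from 0 (blue control, red Pax9-/-). Aurkb, Gmnn and Asf1b show every mutant below every control, Ccnb1 and Mcm6 show overlap, and Cdkn1a separates by title number, from 8.36 to 16.0 in CTR-389 and WAY-318 against 26.3 to 38.6 in CTR-393 and WAY-422.

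Among the G1/S genes, Gmnn had the lowest p of all 50. Gmnn encodes geminin, which binds Cdt1 and blocks a second round of origin licensing from S phase to mitosis. It stood at 21.0 FPKM in the control and 17.8 in the mutant of CTR-389, at 19.9 and 20.05 against 16.3 and 16.9 in CTR-393, at 21.3 and 17.2 in WAY-318, and at 24.3 and 22 against 18.3 and 17.2 in WAY-422. The highest mutant, at 18.3, was below the lowest control, at 19.9. Gmnn fell by 0.30 ± 0.04 (SE; adjusted p = 0.011 by limma, 0.0020 with the block), a mean of 18.8% lower, and the call was kept in all 12 fits that left out 1 library (adjusted p up to 0.047). Its partner Cdt1, the licensing factor, showed -0.08 ± 0.04 and passed neither test (adjusted p = 0.32, and 0.13 with the block).

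Asf1b, which delivers histones behind the replication fork, was at 12.5 FPKM in the control and 11.9 in the mutant of CTR-389, at 12.1 and 12.8 against 11.8 and 12 in CTR-393, at 14.5 and 11.9 in WAY-318, and at 15.0 and 14.7 against 11.8 and 11.9 in WAY-422. The 6 mutants lay within 11.8 to 12 FPKM, while WAY-262611 controls were above untreated controls. Asf1b fell by 0.18 ± 0.03 (adjusted p = 0.025 by limma, 0.0063 with the block), and the call without the block was kept only without untreated mutant 1 or WAY-262611 controls 1 or 2, of 12 fits that left out 1 library. In treated embryos alone its difference was -0.30 ± 0.04 (adjusted p = 0.022), and in untreated embryos -0.07 ± 0.04. The test of the difference between those values did not pass (interaction -0.23 ± 0.06, adjusted p = 0.95 by limma). Tyms, the enzyme that makes thymidylate, was at 11.9 to 13.3 FPKM in controls and 10.4 to 11.3 in mutants, without overlap (-0.20 ± 0.04, adjusted p = 0.053, and 0.017 with the block). The blocked Tyms call was lost without untreated mutant 1 or 2 or untreated control 1 (adjusted p up to 0.058).

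Most replication genes shared a direction, but only some passed the cutoff of 0.05. Mcm2 to Mcm7, Cdc45, Fbxo5, Pcna and Rrm2 were lower in all 4 title numbers, Cdc6 in 3 and E2f8 in 2. With the block, limma called lower Cdc45, a subunit of the active helicase (-0.18 ± 0.03, adjusted p = 0.011). The same test called lower Fbxo5, the inhibitor of the anaphase-promoting complex in S phase (-0.17 ± 0.04, 0.027), Mcm5 (-0.12 ± 0.03, 0.035) and Mcm7 (-0.15 ± 0.04, 0.046). In fits that left out 1 library, the Mcm7 call was kept only without WAY-262611 control 3 (adjusted p otherwise up to 0.13), and the Mcm5 call only without WAY-262611 control 2 or 3 or untreated mutant 3 (up to 0.11). The Fbxo5 call was kept only without untreated mutant 1, untreated control 1, WAY-262611 mutant 2 or WAY-262611 controls 2 or 3 (up to 0.076). The other 4 helicase subunits did not pass: Mcm3 at -0.10 ± 0.03 (adjusted p = 0.0504 with the block), Mcm2 at -0.07 ± 0.03, Mcm4 at -0.04 ± 0.03 and Mcm6 at -0.02 ± 0.03. Mcm6, at 88.4 to 107 FPKM in controls and 89.0 to 103 in mutants, overlapped, and median-ratio scaling turned its sign, to 0.008. Pcna, the sliding clamp, was at 37.6 to 47.7 FPKM in controls and 34.8 to 36.6 in mutants with no overlap, yet its -0.18 ± 0.05 did not pass with the block (adjusted p = 0.055). Rrm2, a subunit of ribonucleotide reductase, differed by -0.09 ± 0.03 (0.061 with the block), and E2f1 by -0.08 ± 0.04 (0.19). Cdc6, a loader of the helicase, and E2f8, a repressor of E2F targets, were at -0.09 each and passed neither test.

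Of the 7 cyclins and kinases that act before S phase, none was called lower over both treatments, Ccnd1 was called higher with the block, and in treated embryos with the block Cdk4 was called lower and Ccnd1 and Ccne2 higher. Ccnd1, the D-type cyclin that couples growth signals to Cdk4, was at 59.8 FPKM in the control and 60.3 in the mutant of CTR-389, at 60.4 and 59.1 against 65.5 and 62.9 in CTR-393, at 55.7 and 59.7 in WAY-318, and at 53.1 and 55.2 against 67.0 and 62.9 in WAY-422. Mutants were higher within each title number, by least in CTR-389. Ccnd1 rose by 0.14 ± 0.03 with the block (adjusted p = 0.042 by limma, 0.13 without it), and this call was lost, at adjusted p of up to 0.12, when WAY-262611 mutant 2 or 3, or any of 6 untreated embryos, was left out. Ccnd2 was at 114 to 157 FPKM in controls and 124 to 145 in mutants, and differed by -0.11 ± 0.09 in untreated and 0.20 ± 0.09 in treated embryos, neither of which passed. Ccnd3 showed 0.13 ± 0.07 in untreated and -0.11 ± 0.07 in treated embryos, and Cdk4, their kinase, -0.01 ± 0.06 and -0.23 ± 0.06 with the block (adjusted p = 0.99 and 0.043). Cdk4 was lower in 3 of the 4 title numbers, by -0.12 ± 0.04 over both treatments (adjusted p = 0.10 with the block), and its call in treated embryos was kept only in the fit without WAY-262611 control 3 (adjusted p otherwise up to 0.16). Ccne1 and Cdk2, the kinase complex of S-phase entry, were at -0.03 ± 0.05 and 0.01 ± 0.06 over both treatments, and a term for heterozygous embryos turned both signs.

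Ccne2, the second E-type cyclin, stood at 8.52 FPKM in the control and 8.25 in the mutant of CTR-389, at 10.8 and 10.47 against 10.04 and 9.81 in CTR-393, at 5.93 and 7.75 in WAY-318, and at 5.08 and 7.19 against 11.7 and 9.63 in WAY-422. Treated controls were the 3 lowest libraries, and treated mutants lay in or near the range of the untreated libraries. In treated embryos Ccne2 was higher in mutants by 0.63 ± 0.13 with the block (adjusted p = 0.025 by limma, 0.10 without it), and the blocked call was lost without WAY-262611 mutant 2 (0.11) or 3 (0.057). In untreated embryos it differed by -0.08 ± 0.16. The interaction of 0.70 ± 0.23 did not pass (adjusted p = 0.95 by limma, 0.44 or more for every member with the block).

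The CDK inhibitors passed no genotype test. Cdkn1c (p57), which is at far higher FPKM than the other members, was at 506 and 627 in CTR-389, 586 and 573 against 669 and 681 in CTR-393, 651 and 649 in WAY-318, and 792 and 642 against 707 and 765 in WAY-422. Mutants were above controls in both untreated title numbers and level or mixed in the treated ones. Its difference was 0.25 ± 0.10 in untreated embryos (adjusted p = 1.0 by limma, 0.26 with the block) and 0.03 ± 0.10 in treated ones. Cdkn1a (p21), a p53 target, was at 8.36 and 16.0 FPKM in CTR-389, 29.2 and 33.0 against 26.3 and 29.2 in CTR-393, 14.9 and 16.0 in WAY-318, and 37.3 and 38.6 against 30.7 and 32.8 in WAY-422. Its level followed the column prefix, with a log2 difference of 1.22 between the prefixes, and the mutants of the 8 libraries with the second prefix were lower by -0.21 (adjusted p = 0.12 by limma), while CTR-389 alone gave 0.90 and the mean over all libraries was 0.03. Cdkn1b (p27) ranged from 14.4 to 17.7 FPKM with no common direction.

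When the treatments were tested apart, members passed in treated embryos and none in untreated ones, but the difference between the treatments did not pass for any member. In untreated embryos limma called none of the 50 genes, beside 0.0922% of all genes. Of the 50, 17 had an unadjusted p under 0.05, beside 531 of all 14107 genes. With the block limma called none, beside 0.525%. That blocked count became 4 without WAY-262611 control 2. Over all genes, the blocked fits that left out 1 library gave 12 to 88 lower calls in untreated embryos. The median mitotic difference in untreated embryos was -0.18. In treated embryos it called 2 lower, Asf1b and Gmnn (adjusted p = 0.022 and 0.042), beside 0.191% of all genes lower, and the median mitotic difference was -0.22. Both calls were lost with a term for heterozygous embryos and in the 6 treated libraries alone, each of which left 0. With that term Asf1b was at -0.29 (limma's adjusted p = 0.059) and Gmnn at -0.33 (0.10). In the 6 treated libraries Asf1b was at -0.30 (0.33) and Gmnn at -0.35 (0.34). The share of all genes called in these fits is not given here. With the block there were 19 lower (13 mitotic and 6 G1/S) and 2 higher, Ccnd1 and Ccne2, beside 5.96% and 4.1% of all genes. A term for column prefix gave 22 lower and 2 higher, beside 7.79% and 5.02% of all genes, and the 8 libraries of the second prefix 5 lower, beside 1.29%. The 6 G1/S genes were Asf1b, Gmnn, Rrm2, Mcm3, Mcm7 and Cdk4. This blocked count became 2 without WAY-262611 mutant 3, 3 without WAY-262611 mutant 2, 7 without WAY-262611 mutant 1 or control 1, 11 without untreated control 3, and 25 without WAY-262611 control 3. Over all genes, the 12 blocked fits that left out 1 library gave 51 to 2139 lower calls in treated embryos. Of the 21 blocked calls of members, those of Gmnn and Asf1b were kept in each of these 12 fits. The other 19 were lost in at least 1. How many of all genes called in treated embryos were kept in each fit was not counted. The unblocked count of 2 became 0 without any 1 of the 3 WAY-262611 mutants, WAY-262611 controls 2 or 3, untreated mutant 2 or untreated control 3, and 1 without untreated controls 1 or 2, untreated mutant 3 or WAY-262611 control 1. Over all genes, the same unblocked fits gave 6 to 29 lower calls. The treated and untreated tests share the estimate of spread but no embryos. The interaction test called no member. At an unadjusted p under 0.05 there were 4 members, beside 704 of all 14107 genes, and 6 with the block, beside 1540.

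WAY-262611 against no treatment was compared within each genotype, across dams, so that the compound and the dam cannot be told apart. In mutants no member was called and none had an unadjusted p under 0.05, beside 133 of all 14107 genes. In controls limma called none of the 50, and 0% of all genes were called in either comparison. At an unadjusted p under 0.05 there were 11 members in controls, beside 2225 of all 14107 genes. A term for column prefix gave 4 calls in controls, beside 2.66% of all genes: Ccnd3 (0.34, adjusted p = 0.041), Asf1b (0.23, 0.034) and Cdkn1c (0.32, 0.049) higher with WAY-262611, and Ccne2 lower (-0.67, 0.039). That term treats embryos that share a title number as independent. The limma fit with title number as a random block, which holds no prefix term, called none of the 4 (adjusted p = 0.77 for each). The fit with neither term also called none of them (adjusted p = 0.13 to 0.20). Whether the block would end the calls with the prefix term kept was not tested. None of the 4 was called in the 8 libraries of the second prefix (0.13 to 0.17). For Ccnd3 the untreated controls were at 26.0 to 27.3 FPKM and the treated controls at 31.4 to 36.5, without overlap. The share of all genes that separate treated from untreated controls in this way was not counted. These comparisons reuse the embryos of the genotype tests. The median mitotic difference with WAY-262611 was -0.01 in mutants and 0.05 in controls.

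Further genes of the same machinery, from lists that hold none of the 50, were read beside them. These lists, and those of the next paragraph, were chosen with earlier results of these data known. They were read in the same 12 embryos, so they are not separate evidence. Of 54 other mitotic genes, all were below 0 for genotype, beside 59.3% of all genes, with a median of -0.17 beside -0.03. Limma called 6 lower without the block and 30 with it, beside 0.532% and 5.34% of all genes, and none higher. The 6 were Cdca5, a cohesin regulator (-0.26 ± 0.04, adjusted p = 0.015), Spc24, a kinetochore subunit (-0.26 ± 0.05), the kinesin Kif18b (-0.22 ± 0.04), Racgap1, a cytokinesis regulator (-0.19 ± 0.03), Cdca3 (-0.29 ± 0.06) and the passenger subunit Cdca8 (-0.21 ± 0.04), with adjusted p up to 0.048. In all 4 title numbers 41 of the 54 (75.9%) were lower, beside 21.9% of all genes. Of 48 other G1/S and replication genes, 47 were below 0, with a median of -0.10. None was called without the block and 11 fell with it, beside 5.34% of all genes, led by the flap endonuclease Fen1 (-0.21 ± 0.03, adjusted p = 0.0061), Mcm10 (-0.18 ± 0.03) and Pole2, a subunit of DNA polymerase epsilon (-0.22 ± 0.04).

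A list of RB, DREAM and CDK regulators and a list of p53 targets were read in the same way. Of 29 tested genes of the RB, DREAM and CDK regulator list, 9 (31.0%) were lower in all 4 title numbers, beside 21.9% of all genes. None was called without the block, and 6 fell with it, beside 5.34% of all genes: Ccnf, Cdkn2b, Mycn, Cdkn2d, Cdkn2c and E2f4. Among them Cdkn2b, an inhibitor of Cdk4 and Cdk6, showed -0.85 ± 0.16 at a low level (1.81 ± 1.10 FPKM in the 6 controls and 0.679 ± 0.375 in the 6 mutants, SD; adjusted p = 0.014). Mycn, a Myc-family factor that promotes proliferation, showed -0.35 ± 0.06 (adjusted p = 0.015). Of 18 tested p53 targets, 5 (27.8%) were lower in all 4 title numbers, again beside 21.9%. Beside 2.91% of all genes higher and 5.34% lower, the block gave Plk2 higher (0.32 ± 0.04, adjusted p = 0.0017) and Phlda3 lower (-0.21 ± 0.05, 0.029).

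**Figure D4:**
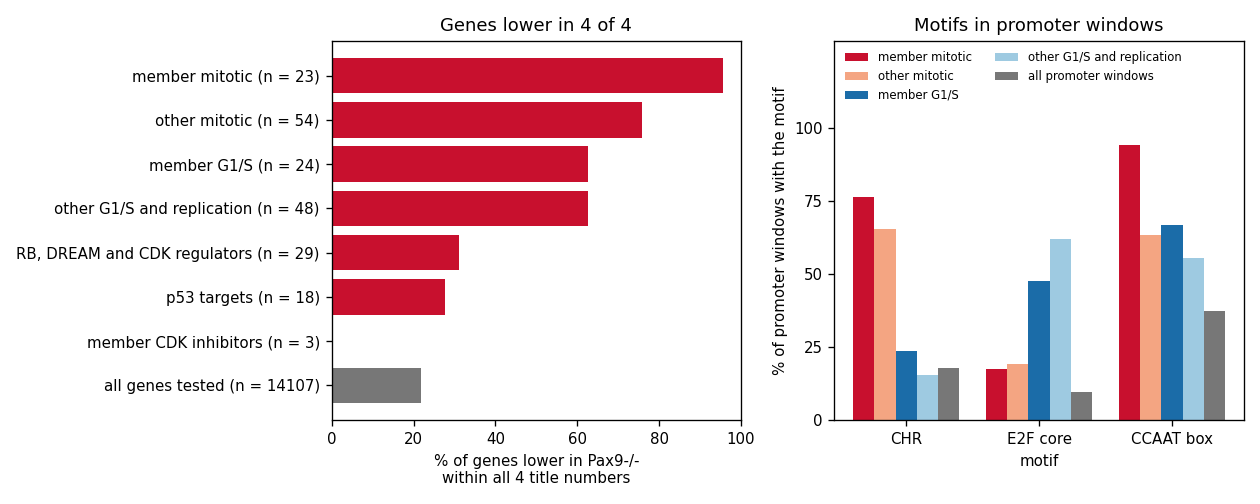
Left, share of each gene list lower in Pax9-/- within all 4 title numbers, from 95.7% of the 23 mitotic genes to 0% of the 3 CDK inhibitors, beside 21.9% of all 14107 genes. Right, share of RefSeq promoter windows holding a CHR, an E2F core or a CCAAT box in each list and in all windows; the CHR was in 76.5% of mitotic and 65.4% of other mitotic windows, and the E2F core in 47.6% of G1/S and 62.2% of other G1/S windows.

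The CHR and the E2F core differed in frequency between the added lists, and the CCAAT box less so. A CHR was in 34 of 52 windows of the other mitotic genes (65.4%) and in 7 of 45 windows of the other G1/S genes (15.6%), and an E2F core in 10 (19.2%) and 28 (62.2%). A CCAAT box was in 63.5% and 55.6% of them, against 94.1% and 66.7% in the mitotic and G1/S windows of the 50 genes. Within the 50, Asf1b, Cdc45, Fbxo5, Mcm2 and E2f8 were the G1/S genes whose window held a CHR together with a CCAAT box. Among these 5, the genotype difference ran from -0.07 for Mcm2 to -0.18 for Asf1b. Among the 14 G1/S genes whose windows lack a CHR it ran from 0.01 for Ccnd3 to -0.20 for Tyms, so that the ranges overlapped. The median was -0.17 in the 5 and -0.09 in the 14, a difference that was not tested. Ccnd1, Ccnd2, Ccne2, Gmnn and Mcm4 had no window and are in neither group. Their differences were 0.14, 0.04, 0.28, -0.30 and -0.04. Mitotic windows without a CHR as spelled were those of Ccnb1, Birc5, Bub1 and Cenpe, with differences of -0.06, -0.21, -0.07 and -0.15, beside -0.07 to -0.30 in the 13 with a CHR. The median was -0.11 in these 4 genes and -0.23 in the 13, also not tested. The mitotic genes Ccna2, Cdc25c, Aurkb, Foxm1, Kif20a and Tpx2 had no window, with differences from -0.10 to -0.28.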

How the data were processed

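RNA of 12 palatal shelf samples was analysed. The authors deposited FPKM values for 19083 genes in a single table, and Novoalign 2.08.03, DESeq2 and mm10 are named per the submitters' processing notes. For the annotation, counting tool and strand setting the entry is "not given in the sources used here", so reads of overlapping or antisense genes cannot be told apart. Whole reads were recovered within 0.001 read for 19082 genes (99.99%), and they gave the depth only. No pair of libraries in a group was a copy of the other.

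Values were tested as log2(FPKM + 0.5) with limma 3.58.1 (trended variance) in R 4.3.3, over 14107 genes (1 FPKM or more in 3 or more libraries), all 12 libraries in 1 fit, two-sided, with calls at an adjusted p of 0.05 or below. Fold changes on this scale understate the change of low genes. The scripts were tested on simulated data. Title number was used as a block beside the unblocked fit. For WAY-262611, which is nested in title number, the block was random. The design text calls the embryos littermates, although no label says that the title number is the litter. Over 10 pairs of libraries that share a title number, deviations from group means correlated at 0.32 to 0.83; each such pair also shares a column prefix. Each library is 1 embryo, and nothing says how dams were replicated beyond the title numbers.

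Named were every member called by either fit and 22 fixed cyclins, kinases, helicase subunits and inhibitors, and of other lists the called genes with the lowest p, at most 6 each. Genes outside that rule (Bub1, Cenpf, Kif11, Cdc6, Cdt1, Mcm4, E2f8) were named to complete a group after their values were seen. Members and lists were chosen with earlier results of these data known. Alternatives were other pseudocounts (0.1 and 1) and filters, median-ratio scaling, the block, terms for heterozygous embryos or column prefix, 1 prefix only, 1 treatment only, and leaving out each library.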

Additional observations from a re-analysis of the deposited data

How the results depend on the processing

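Counts of members called for genotype over both treatments depended most on the model. The 4 lower calls became 25 with the replicate block, 18 with the replicate block and median-ratio scaling, 26 with a term for column prefix, 8 in the 8 libraries of 1 prefix, and 0 with a term for heterozygous embryos. The single higher call appeared with the replicate block (1), also with median-ratio scaling (1), and with the prefix term (1). In treated embryos the 2 lower calls became 1 with median-ratio scaling, 19 with the replicate block, 13 with the block and median-ratio scaling, 22 with the prefix term, 5 in the 8 libraries, 0 with the heterozygous term and 0 in the 6 treated libraries alone. Higher calls there were 2 with the block, with or without median-ratio scaling, and 2 with the prefix term. For WAY-262611 in controls the prefix term gave 1 lower and 3 higher. No share over all genes is given here for median-ratio scaling, the heterozygous term or the 6 treated libraries alone. Those counts of members therefore have no background to be read against. Leaving out 1 library gave 1 to 5 lower calls over both treatments (15 to 29 with the block) and 0 to 2 in treated embryos (2 to 25 with the block), up to 4 in untreated embryos with the block, and higher calls of 0 to 2 and 0 to 3 with the block. Among all genes the same fits gave 26 to 77 lower calls over both treatments (320 to 1703 with the block). In treated embryos they gave 6 to 29 (51 to 2139 with the block), and in untreated ones 12 to 88 with the block. Higher calls among all genes with the block were 190 to 888 over both treatments and 56 to 1389 in treated embryos.

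The mean G1/S difference moved from -0.08 to -0.047 under median-ratio scaling; the mean mitotic difference was -0.15 there and -0.20 in the 8 libraries. Signs turned only for genes that were not called over both treatments, with or without the block. In the 8 libraries Ccnd2 was -0.027, Ccnd3 -0.0017, Cdk2 -0.012, Cdkn1a -0.21 and Cdkn1b -0.0050; under the heterozygous term Ccne1 was 0.048, Cdk2 -0.041 and Ccnb1 0.053; under median-ratio scaling, with and without the block, Mcm6 was 0.0078. The cause was not tested. Leaving out 1 library gave ranges across 0 for Ccnb1 (-0.10 to 0.0007, and -0.11 to 0.0086 with the block). The same held for Ccnd2 (-0.0037 to 0.085 with the block) and Ccnd3 (-0.013 to 0.042, and -0.015 to 0.046 with the block). Without the block it also held for Cdk2 (-0.039 to 0.038), Mcm6 (-0.054 to 0.014), Cdkn1a (-0.28 to 0.20) and Cdkn1b (-0.016 to 0.035).

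With 3 embryos per group and 4 title numbers, the smallest difference called over both treatments without the block was -0.18 (Asf1b). Every member had 689 or more reads in every library.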
